A study of Mus musculus with 19 samples.

Results

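Distal TEAD sites that were found in mouse livers without a YAP transgene and also in livers of transgenic mice with induced YAP were described here. They were defined as TEAD peaks of livers without the transgene (WT) that overlapped, by at least 1 bp, a TEAD peak of livers induced for 3 days and one of livers induced for 7 days, and that did not touch a promoter window, which spans 2000 bp before and 1000 bp after any start of a protein-coding gene. The peaks were thus chosen by the presence of TEAD peaks in the 3 TEAD lists. Of the 5695 WT TEAD peaks, 3636 met this rule. They are called retained distal peaks below, where retained means present in the lists of both genotypes, not followed over time in 1 animal. Of the rest, 1758 were retained but lay at promoters, 251 were distal but were not found at both times, and 4 retained peaks on unplaced sequences were not assigned.

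The peaks came from chromatin immunoprecipitation followed by sequencing (ChIP-seq) of C57BL/6 mouse liver with an antibody against YAP or against TEAD. All animals carried the ROSA26-rtTA-IRES-EGFP allele and received doxycycline food. The WT group had no YAP transgene and was fed for 7 days, and the tetYAP groups were fed for 3 days (3 d) or for 7 days (7 d). The 19 samples formed 6 groups of 3 replicates, except TEAD at 7 d with 4, and each group was merged into 1 peak list. According to the study's methods, the transgene encodes an activated YAP (YAP S127A), Cre recombinase under the albumin promoter directed its induction to hepatocytes, and the TEAD antibody was raised against TEAD4 and has been reported to bind TEAD1 and TEAD3 as well. The peaks therefore cannot be assigned to 1 TEAD protein, and cells other than hepatocytes contribute chromatin to each sample.

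TEAD proteins are the DNA-binding factors through which YAP reaches chromatin. The Hippo kinases keep YAP out of the nucleus, and when they are inactive or when YAP is mutated at their target sites, YAP enters the nucleus and joins TEAD, mostly at enhancers far from gene starts. In adult liver, YAP activity is low in hepatocytes and higher in bile duct cells, and enhancers of hepatocyte genes are held by factors such as HNF4A, FOXA and C/EBP proteins.

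Sequence around the summit is shown for some of these sites. The following 200-base stretches were read from the NCBIM37 (mm9) assembly, plus strand, around the WT summit. Capitals mark GGAATG or its reverse complement CATTCC, the core of the motif that TEAD proteins bind. The first 3 lead the WT TEAD list by −log10 p-value, and the last 3 were the retained distal peaks whose YAP peak at 7 d had the highest −log10 p-value. They are named by the nearest start of a protein-coding gene.
Ctnnd1, 2212 bp downstream of a start, in an intron, chr2:84475950-84476149: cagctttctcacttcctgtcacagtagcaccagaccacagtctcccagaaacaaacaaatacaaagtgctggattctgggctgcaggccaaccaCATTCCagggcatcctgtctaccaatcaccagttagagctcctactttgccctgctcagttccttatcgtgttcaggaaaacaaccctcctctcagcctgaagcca
Amotl2, 48925 bp downstream of a start, intergenic, chr9:102681886-102682085: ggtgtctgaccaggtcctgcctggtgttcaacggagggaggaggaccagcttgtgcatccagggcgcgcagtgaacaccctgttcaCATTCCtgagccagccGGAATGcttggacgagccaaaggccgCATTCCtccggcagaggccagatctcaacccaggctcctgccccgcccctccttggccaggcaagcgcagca
Tacc1, 73766 bp upstream of a start, intergenic, chr8:26385587-26385786: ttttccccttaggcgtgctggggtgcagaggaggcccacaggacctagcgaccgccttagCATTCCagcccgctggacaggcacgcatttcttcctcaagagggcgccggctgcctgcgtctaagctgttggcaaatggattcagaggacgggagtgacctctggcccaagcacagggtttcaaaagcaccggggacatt
Gm22, 35254 bp upstream of a start, in an intron of Gm20388, chr8:124758115-124758314: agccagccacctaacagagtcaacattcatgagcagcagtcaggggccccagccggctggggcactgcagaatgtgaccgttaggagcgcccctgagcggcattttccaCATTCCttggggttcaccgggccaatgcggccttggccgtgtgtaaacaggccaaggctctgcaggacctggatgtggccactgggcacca
Aldh1l1, 22001 bp downstream of a start, in an intron, chr6:90458322-90458521: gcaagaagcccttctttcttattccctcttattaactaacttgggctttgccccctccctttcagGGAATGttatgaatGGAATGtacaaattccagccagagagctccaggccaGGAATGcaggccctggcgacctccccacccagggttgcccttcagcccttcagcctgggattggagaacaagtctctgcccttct
Alb, 10717 bp upstream of a start, intergenic, chr5:90879098-90879297: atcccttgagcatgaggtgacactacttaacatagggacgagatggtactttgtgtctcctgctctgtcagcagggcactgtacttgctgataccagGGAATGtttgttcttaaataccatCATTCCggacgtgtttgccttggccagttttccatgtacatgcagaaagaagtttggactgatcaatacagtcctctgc
Each of the 6 stretches held the motif. Within 100 bp of the WT summit, it was held by 52.5% of all retained distal peaks. Of the 727 in the highest of 5 bins of WT fold enrichment, 71.5% held it. The Amotl2 and Aldh1l1 peaks held 3 copies, the Alb peak held 2, and the other 3 peaks held 1. In the Aldh1l1 peak all 3 copies lay on the plus strand, whereas the Amotl2 and Alb peaks had copies on both strands.

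TEAD occupancy at the retained distal peaks was read from the fold enrichment, the ratio of fragments at the summit to the local background. These values belong to the lists that chose the peaks and are given as a description. The median fold enrichment of the 3636 peaks was 5.12 in WT livers (quartiles 4.38 to 6.44, range 2.62 to 35.2). It was 12.4 at 3 d with quartiles of 8.84 and 17.2, and 17.5 at 7 d with quartiles of 11.3 and 26.9. Fragment length in the calls differed, 400 bp for the WT list, 207 bp for the 3 d list and 206 bp for the 7 d list, as did depth, so levels cannot be compared between WT livers and the induced lists. The median retained distal peak stood at percentile 52.7 of its list by fold enrichment in WT livers, at percentile 90.8 at 3 d and at percentile 88.1 at 7 d. The rule asked for a peak in every list, and the lists of induced livers were longer, with 36446 and 38984 peaks, so the higher percentiles there go with the choice of peaks and are not a finding.

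**Figure D1:**
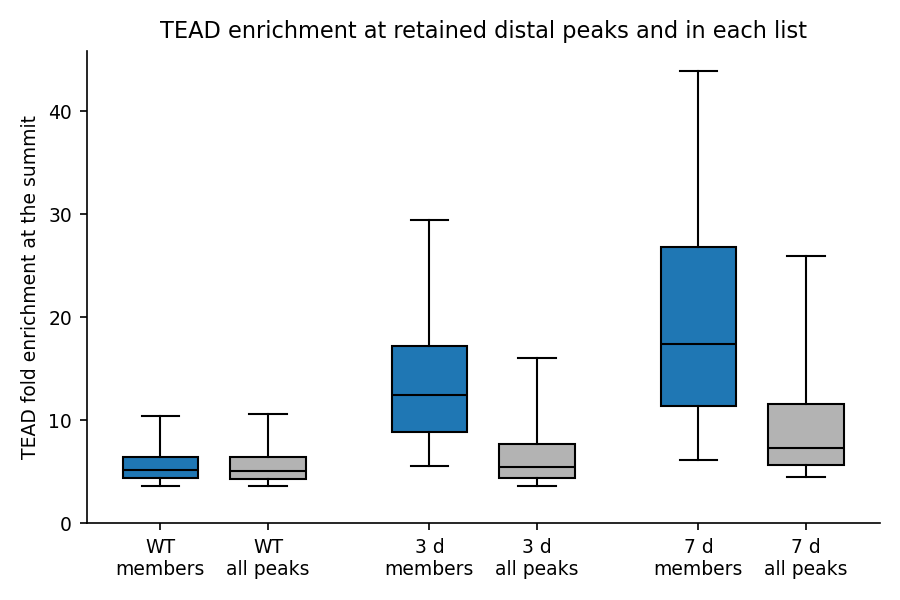
TEAD fold enrichment at the summit (vertical axis) of the 3636 retained distal peaks (members, blue) and of all peaks of each TEAD list (grey), for the WT, 3 d and 7 d groups. Boxes show median and quartiles and whiskers the 5th and 95th percentiles over peaks; the medians of retained distal peaks were 5.12, 12.4 and 17.5 against 5.05, 5.44 and 7.30 over each list.

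The order of strength was kept in part. Across the 3636 peaks, Spearman's rank correlation of fold enrichment was 0.68 between WT and 3 d, 0.56 between WT and 7 d and 0.84 between 3 d and 7 d, where all lists share 1 control library. The 3636 peaks were also ranked among themselves by −log10 p-value in each list. Of the first 100 in WT livers, 62 were among the first 100 at 3 d and 37 among those at 7 d. Summits moved little: the median distance from the WT summit was 31 bp at 3 d and 31 bp at 7 d (quartiles 13 to 63 and 13 to 66). Nearly all peaks were matched to a single counterpart, with 50 peaks overlapping 2 or more peaks at 3 d and 45 at 7 d.

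The strongest retained distal peak in WT livers lay in an intron of Ctnnd1, which encodes the adherens junction protein p120 catenin (chr2:84475651-84476503). Its fold enrichment was 35.2 in the WT list, 51.3 at 3 d and 66.6 at 7 d, and it ranked 1, 3 and 14 by −log10 p-value in these lists. The second lay between genes, downstream of Amotl2, which encodes an angiomotin that binds YAP (chr9:102681488-102682429). It had a fold enrichment of 30.5, 37.2 and 43.4. The third lay far upstream of Tacc1, a gene for a centrosomal protein (chr8:26385298-26386158), with values of 34.0, 57.6 and 70.5 in the same order. The fourth lay 5297 bp downstream of a start of Pim3, which encodes a serine/threonine kinase (chr15:88697718-88698603), with values of 32.6, 53.8 and 73.1. The last of the 5 lay 10717 bp upstream of Alb, the albumin gene (chr5:90878538-90879724), with values of 27.1, 47.7 and 72.3. This peak ranked 5 in WT livers and 1 at 7 d. All 5 overlapped a YAP peak at 7 d.

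At the edges of the rule, the retained distal peak nearest to a promoter window lay downstream of a Plxnb2 start and ended against the window without sharing a base (fold enrichment 4.75), and the next lay 2268 bp upstream of Zbtb44 (6.11). Just outside the rule were peaks near Nipsnap3b and Tlcd2, which shared 2 bp and 10 bp with a promoter window (fold enrichment 10.4 and 20.2). The smallest overlaps with an induced list were 16 bp at a peak near Fzd1 and 18 bp at one near Gas7 (fold enrichment 3.85 and 3.59). Of the 251 distal peaks that were not retained, 64 had no peak at 3 d and 229 had none at 7 d. The 2 that came closest to an overlap lay upstream of Trpm8 and downstream of 4930583H14Rik (fold enrichment 4.12 and 3.69). All WT TEAD peaks together were retained at both times in 94.8%, so retention itself was the rule.

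The 3 d and 7 d lists were called with nearly the same fragment length, so their pileups were set side by side at each site. Pileup, the number of fragments over the summit, was scaled to the number of tags in the library and by nothing else. The ratio of 7 d to 3 d had a median of 1.38 at the retained distal peaks (quartiles 1.14 to 1.65), 1.32 at retained promoter peaks and 1.37 at induced distal peaks, that is, distal 7 d TEAD peaks that were shared with 3 d and absent from WT livers. Over all 27753 TEAD peaks at 7 d that overlapped one at 3 d, the median was 1.33. With 1 merged list per time, no replicate spread exists against which to judge these ratios. A ratio over 2 was found for 322 retained distal peaks (8.86%), against 10.7% of all 7 d peaks with a 3 d peak, and a ratio under 0.5 for 4 (0.110%), against 0.389%. At a lower threshold of 1.5-fold the order was the opposite: 1364 retained distal peaks were higher at 7 d (37.5%), against 33.6%, and 65 were lower (1.79%), against 1.47%. Whether such peaks were more frequent among the retained distal peaks than over all 7 d peaks with a 3 d peak therefore depended on the threshold. At both thresholds, far more retained distal peaks were higher than lower. The shift ran through the whole list: a ratio above 1 was found for 85.5% of retained distal peaks and 83.8% of all 7 d peaks with a 3 d peak.

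The most extreme ratios named individual sites. The highest, 12.4, belonged to a peak 32253 bp downstream of an Amotl2 start, with a pileup of 30 at 3 d and 261 at 7 d. There the 7 d peak was 1813 bp long and its summit lay 793 bp from that of the matched 3 d peak. A neighbouring 3 d peak nearer to that summit had a pileup of 161, which gives a ratio of 2.32. The next, 7.68, belonged to a peak near 3930402G23Rik whose summits lay 42 bp apart, with pileups of 24 and 129. The third, 5.34, belonged to a peak upstream of Ankrd28 in an exon of the non-coding gene D830044D21Rik, where the summits lay 990 bp apart, and the 3 d peak nearest to the 7 d summit gave a ratio of 1.36. The lowest ratios were 0.438 in an intron of Col14a1, a collagen gene, 0.443 near Akap13, which encodes a kinase-anchoring protein, and 0.469 in an intron of Lhfpl2. In each of these 3 peaks the summits lay at most 24 bp apart, and the pileup went from 75 to 23, from 71 to 22 and from 67 to 22. Of the 322 peaks with a ratio over 2, 305 had 3 d and 7 d summits at most 100 bp apart.

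Downstream of Amotl2 lay 4 retained distal peaks, with Amotl2 or Ryk as the nearest or containing gene. These peaks followed each other within 10 kb of the next, beyond the end of Amotl2. Counted from the first annotated Amotl2 start, their WT summits lay at 46312, 53767, 62984 and 67771 bp, and their fold enrichment in WT livers was 4.87, 4.05, 30.5 and 5.72. One more retained distal peak lay just past the gene, at 19415 bp (fold enrichment 11.3). At 7 d the YAP list had peaks at the retained sites at 19415, 62984 and 67771 bp, with a fold enrichment of 5.24, 8.07 and 6.11. It also had a peak of 10.1 at 47047 bp, which lay under the strong 7 d TEAD summit but did not overlap the retained WT peak. Within the gene, the WT peaks at 1077 bp and 9817 bp were at promoter windows and were not retained distal peaks.

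**Figure D2:**
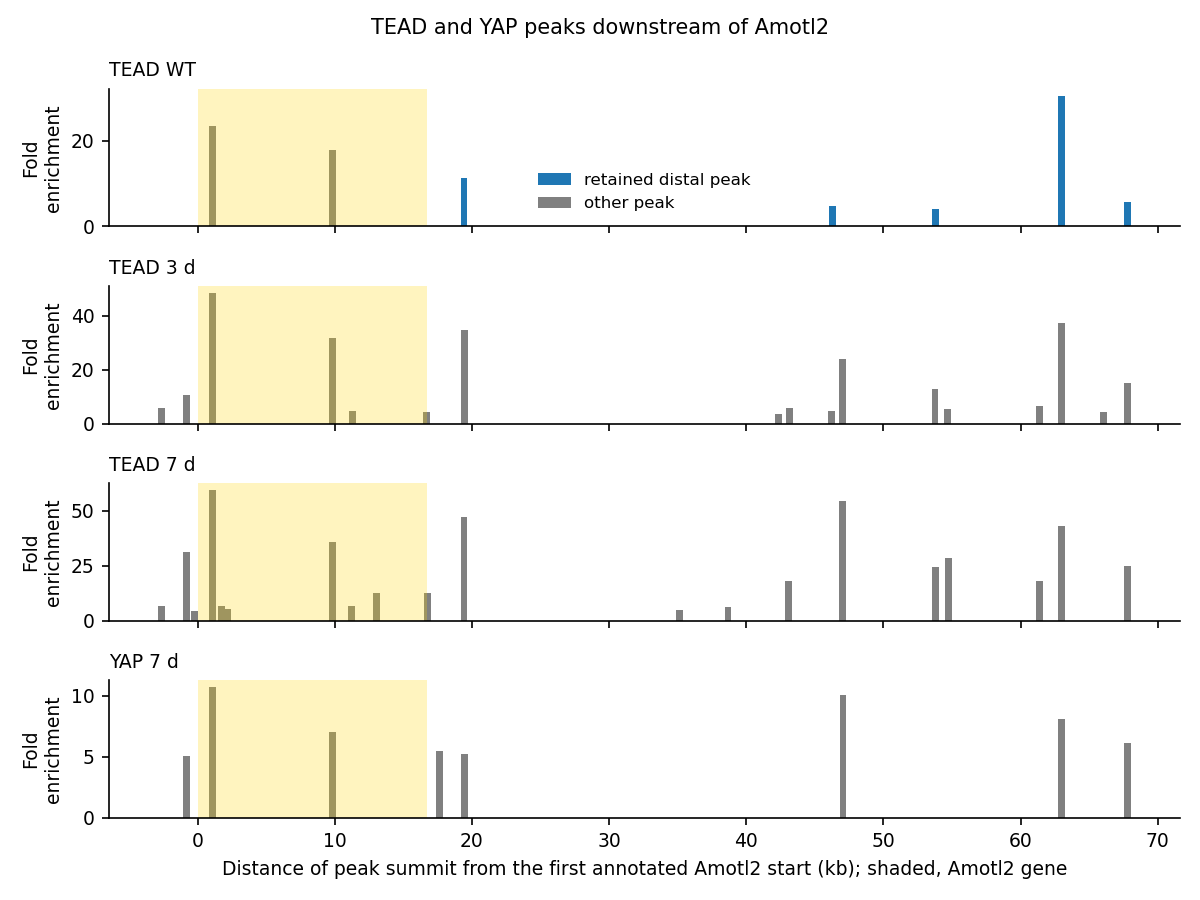
Fold enrichment (vertical axis, own scale in each row) of TEAD peaks (WT, 3 d and 7 d) and of YAP peaks (7 d) against distance of the summit from the first annotated Amotl2 start in kb. Retained distal peaks are blue in the top row and the gene is shaded; the strongest WT peak of the stretch, 30.5-fold, sits at 62984 bp with a YAP peak of 8.07-fold at 7 d.

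Position relative to genes was not fixed by the rule beyond the promoter window. Of the 3636 peaks, 1975 overlapped an annotated transcript (54.3%, 95% Wilson interval 52.7% to 55.9%). By summit, 1722 lay in introns of protein-coding genes (47.4%), 1692 between genes (46.5%), 55 in UTRs and 45 in coding exons. The median distance to the nearest start of a protein-coding gene was 19884 bp (quartiles 7557 to 52878 bp). A summit lay within 20 kb of a start in 1823 peaks (50.1%) and at 100 kb or more in 450 (12.4%). Induced distal peaks overlapped a transcript slightly more often, in 57.4%, and the difference was −3.08 percentage points (95% Newcombe interval −4.88 to −1.29). These intervals cover counting error over peaks, which are not replicates. The share within 20 kb of a start differed by −1.80 points (−3.60 to 0.01), an interval that includes 0.

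Most retained distal peaks stood alone. When peaks were chained by gaps of at most 10 kb, 3053 had no neighbour and 583 fell into 263 runs, of which 13 held 4 or more. The longest run had 7 peaks in introns of Mtss1, a gene for an actin-binding scaffold, with a fold enrichment in WT livers of 3.82 to 6.37 and no YAP peak at 7 d. A run of 5 peaks lay in introns of Nrp1, the neuropilin 1 gene, also without YAP. A run of 4 lay around Ccnd1, the cyclin D1 gene, with a fold enrichment of 3.96 to 13.6 and YAP at 2 of its peaks. These runs were chosen after their values were seen. Among the autosomes and X, the number of retained distal peaks ranged from 26 on X to 270 on chromosome 2. Their density ranged from 0.156 per Mb on X to 2.15 per Mb on chromosome 19. None lay on Y or on mitochondrial DNA.

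Gene lists were used to describe where the peaks lie. Over all 22238 protein-coding genes, 2092 had a retained distal summit within 20 kb of a start (9.41%), and 365 had one that overlapped a YAP peak at 7 d (1.64%). Among hepatocyte transcription factors, 9 of 22 genes had one. The strongest was 2620 bp downstream of an Rxra start, which encodes the retinoid X receptor partner of many nuclear receptors, with a TEAD fold enrichment of 9.32 (WT), 20.1 (3 d) and 30.4 (7 d). Values in brackets below follow this order. The next were at Nr1h4, the bile acid receptor FXR (8.51, 14.9 and 12.7), at Ppara, the fatty acid sensor (7.12, 24.4 and 25.1), and at Cebpb, a C/EBP factor (5.98, 15.3 and 18.1). Rxra, Nr1h4 and Ppara had 2 retained distal peaks each, of which the stronger in WT livers is given. At Nr1h4 the peak given had no YAP at 7 d and the other one did. Of the 9 genes, only Nr1h4 had a peak that overlapped YAP.

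Among genes of plasma proteins, 14 of 37 annotated genes had a retained distal peak, and 2 had one that overlapped YAP at 7 d. Alb had 3, Ttr, the transthyretin gene, had 3, and Trf, the transferrin gene, had 2. The strongest at Trf lay 11030 bp upstream of its start (6.65, 22.6 and 35.9). Cp, the ceruloplasmin gene, had 1 peak, 2925 bp upstream (6.27, 14.7 and 20.5). Neighbouring genes of this list share peaks, such as Fga and Fgb or Apoa1 and Apoc3, so the genes are not independent. Of genes of liver metabolism, 8 of 40 had a peak. The strongest were near G6pc, the glucose-6-phosphatase catalytic subunit (9.97, 26.8 and 37.5), and Pck1, the gluconeogenic PEP carboxykinase (7.84, 16.1 and 20.7). Both overlapped a YAP peak at 7 d, and these were the only 2 of the 8 genes with such a peak. Irs2, an adaptor of the insulin receptor, had a peak 12835 bp upstream without YAP.

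Among genes known as YAP targets, 3 of 22 had a retained distal peak: Amotl2, Nuak2, which encodes a kinase that limits YAP inhibition, and Ptpn14, which encodes a phosphatase that binds YAP. The Nuak2 peak lay 6235 bp downstream of a start (11.3, 32.8 and 48.1) and overlapped a YAP peak at 7 d with a fold enrichment of 8.30. Ctgf, Cyr61 and Tead4 had no retained distal peak within 20 kb of a start, where peaks at their promoters do not count. Tead1 had 1, 15881 bp upstream (5.72, 7.72 and 14.1), and 2 more lay farther inside the gene, of which that at 28836 bp overlapped a YAP peak at 7 d with a fold enrichment of 5.30. Of the components of the Hippo pathway, 5 of 31 had a peak. The strongest lay in an intron of Vgll4, which encodes a competitor of YAP for TEAD (14.1, 39.8 and 64.8), and 1 at Wwc1, the KIBRA gene, had values of 7.98, 21.5 and 37.7. Both overlapped YAP at 7 d, and 3 of the 5 genes had such a peak.

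Genes of cell junctions and the cytoskeleton had a retained distal peak in 12 of 28 cases. Besides Ctnnd1, peaks lay in an intron of Cldn1, a tight junction claudin (14.6, 32.5 and 39.4), and near Cldn3, another claudin gene (8.21, 20.2 and 30.2). Biliary and progenitor markers had one in 5 of 20 cases. The peak of Notch1, a receptor of bile duct specification, lay in a UTR and had values of 8.73, 35.7 and 53.4, and that 2421 bp upstream of Krt18, a keratin gene, had values of 5.98, 26.6 and 44.1. Both overlapped YAP at 7 d. The remaining genes of this list with a peak, Krt8, Notch2 and Hes1, had none that overlapped YAP. Among AP-1 factor genes, 3 of 17 had a peak, at Fosl2 (8.51, 24.5 and 37.0), Junb (6.91, 17.9 and 20.6) and Fosb (4.25, 11.5 and 16.3), and only the Fosl2 peak overlapped YAP. For the markers of liver cell types, 3 of 6 hepatocyte genes had a retained distal peak, against 0 of 5 for cholangiocytes, 1 of 6 for endothelial cells and 0 of 6 for each of Kupffer cells, stellate cells and lymphocytes. The lists are short and share genes, and no test was made.

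YAP lists were not used by the rule, so overlap with them could be compared. At 7 d, 578 of the 3636 retained distal peaks overlapped a YAP peak (15.9%, 95% Wilson interval 14.7% to 17.1%), against 13.5% of all WT TEAD peaks. The share was 9.33% of the retained promoter peaks, a difference of 6.57 percentage points (95% Newcombe interval 4.72 to 8.33), and 5.18% of the distal peaks that were not retained, a difference of 10.7 points (7.05 to 13.2). By the rule itself, 229 of these 251 had no TEAD peak at 7 d, and their median TEAD fold enrichment in WT livers was 4.39 against 5.12. Retained distal peaks of up to 4.79-fold enrichment had YAP shares of 6.46% and 6.74% in their 2 bins. Conversely, the retained distal peaks accounted for 9.24% of the TEAD peaks at 7 d and for 39.1% of the 1478 YAP peaks. They held 44 of the 100 strongest YAP peaks (95% interval 34.7% to 53.8%) and 157 of the 456 weakest placed ones (34.4%, 30.2% to 38.9%). These shares were not adjusted for TEAD strength at 7 d. Of the 578 matched 7 d TEAD peaks with YAP, 524 lay in the highest of 10 bins of 7 d fold enrichment. In that bin, YAP overlapped 32.4% of 1615 retained and 30.0% of 1235 induced distal peaks.

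YAP peaks called in livers without the transgene or at 3 d were few. At the retained distal peaks, 17 overlapped a YAP peak of WT livers (0.468%, against 0.931% of all WT TEAD peaks) and 13 overlapped one at 3 d (0.358%, against 0.878%). Of the 17, 10 lay in a single stretch of chromosome 1 around Hjurp, Heatr7b1 and Trpm8 (chr1:90113316-90207171), and 2 lay next to each other upstream of Alb. Apart from the strong Alb peak, their TEAD fold enrichment in WT livers was at most 9.10. The YAP lists of WT livers and of 3 d held 156 and 110 peaks in all, so absence of a YAP peak there cannot be told apart from weak enrichment.

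By −log10 p-value, the strongest YAP peak at a retained distal site lay in an intron of Gm20388 (chr8:124757933-124758460), with a YAP fold enrichment of 25.3, rank 1 of the YAP list at 7 d. TEAD enrichment at this site was 6.91 in WT livers, rank 1194, and then 39.6 at 3 d and 68.8 at 7 d. The next was the intronic site of Aldh1l1, an enzyme of folate metabolism, with a YAP value of 17.9 (TEAD 21.8, 48.9 and 73.8), followed by the Alb site with 13.4. The fourth lay 13399 bp downstream of a start of Rnf44, a gene for a RING finger protein, with a YAP value of 13.5 (TEAD 17.2, 45.4 and 57.5). The last lay in an intron of Cbx7, a Polycomb gene, with 14.4 (TEAD 10.4, 29.4 and 62.2). Among the 5, TEAD rank in WT livers ranged from 5 to 1194, so a strong YAP peak was not limited to the strongest WT sites.

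YAP overlap rose with TEAD enrichment in WT livers. The retained distal peaks were divided by WT fold enrichment into 5 bins of equal size. From the lowest to the highest bin, 6.46% (95% Wilson interval 4.89% to 8.48%), 6.74%, 11.4%, 16.2% and 38.7% (35.2% to 42.2%) overlapped YAP. This rise was not examined within bins of 7 d TEAD enrichment. Across the 578 peaks with YAP, Spearman's rank correlation of YAP fold enrichment was 0.22 with TEAD in WT livers and 0.53 with TEAD at 7 d. The 578 peaks with YAP had a median TEAD fold enrichment of 6.78 (WT), 21.3 (3 d) and 33.9 (7 d), against 4.92, 11.4 and 15.6 for the 3058 without. Their median ratio of 7 d to 3 d was 1.53 against 1.35, with 13.8% and 7.91% of peaks over 2. No difference by position was detected: 15.9% of peaks in genes and 15.8% of those between genes overlapped YAP, with a difference of −0.11 points (−2.48 to 2.29), and the difference between peaks at 20 kb or more from a start and nearer ones was 0.86 points (−1.52 to 3.24).

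The TEAD motif was searched on both strands within 100 bp of the summit. It was present at 1909 of the 3636 retained distal peaks (52.5%, 95% Wilson interval 50.9% to 54.1%), against 48.6% of all WT TEAD peaks and 35.2% of all 7 d TEAD peaks in windows of the same length. In windows of that length centred 700 bp to either side of the same summits, the share was 11.2%. Retained promoter peaks held it in 42.4%, a difference of 10.1 points (7.23 to 12.9), and distal peaks that were not retained in 38.6%, a difference of 13.9 points (7.49 to 19.9). The peaks that were not retained were weaker in WT livers, as given with their YAP share, and the 2 lowest of the 5 bins of retained distal peaks by WT enrichment held the motif in 34.5% and 43.6%, below and above their 38.6%. Around the 7 d summits, the motif was found at 54.3% of the retained and 33.5% of the induced distal peaks, a difference of 20.8 points (19.0 to 22.6). Sites were packed at the summit, with 154 per 1000 peaks in the central 20 bp and 12.9 per 1000 in the 20 bp centred 200 bp away. A match is a string of letters and does not show that TEAD bound there.

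**Figure D3:**
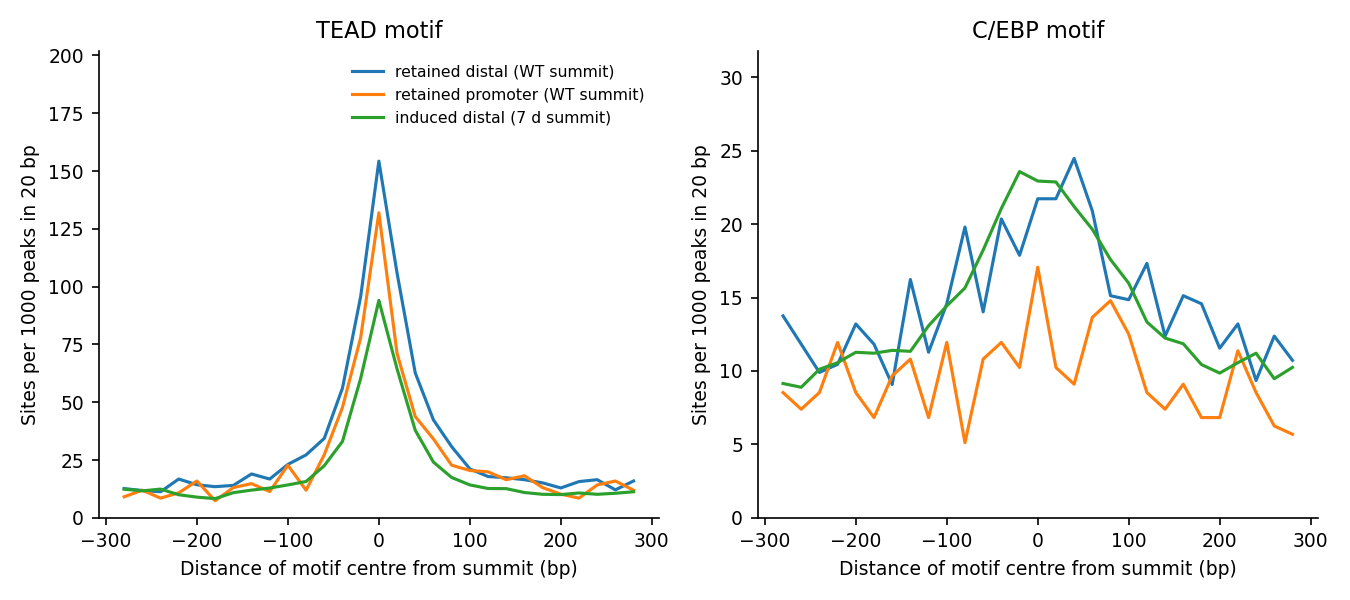
Sites of the TEAD motif (left) and the C/EBP motif (right) per 1000 peaks in bins of 20 bp (vertical axis) against distance of the motif centre from the summit in bp, for retained distal and retained promoter peaks around the WT summit and induced distal peaks around the 7 d summit. The TEAD motif reached 154 sites per 1000 retained distal peaks in the central bin, against 132 at retained promoter and 94.1 at induced distal peaks, while the C/EBP motif formed a lower and broader rise. Around 7 d summits, as used for the induced peaks, the central value of the matched retained distal peaks was 212 per 1000 (not drawn).

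YAP overlap went with the number of motif copies. It was found at 10.6% of the 1727 retained distal peaks without the motif, 18.1% of the 1601 with 1 copy, 33.0% of the 270 with 2 copies and 44.7% of the 38 with 3 or more (95% Wilson interval 30.1% to 60.3%). Peaks with the motif exceeded those without by 10.1 points (7.76 to 12.4). As the motif was also more frequent at stronger peaks, from 34.5% in the lowest of the 5 bins of WT enrichment to 71.5% in the highest, the difference was computed within bins, where it was 5.61 points (2.91 to 8.31). In the highest bin, 41.3% of peaks with and 31.9% of peaks without the motif overlapped YAP. Median 7 d TEAD enrichment also rose with 0, 1, 2 and 3 or more copies, at 15.3, 19.3, 23.3 and 27.3. The comparison was not repeated within bins of 7 d enrichment.

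**Figure D4:**
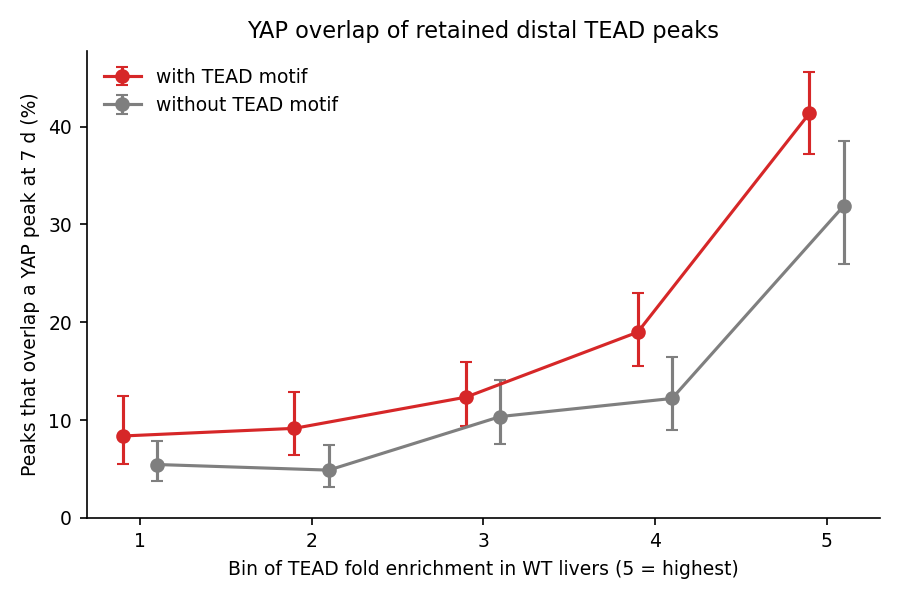
Share of retained distal TEAD peaks that overlap a YAP peak at 7 d, in percent (vertical axis), by bin of TEAD fold enrichment in WT livers (5 bins of equal size), for peaks with (red) and without (grey) the TEAD motif within 100 bp of the summit. Bars are 95% Wilson intervals over peaks; with the motif the share went from 8.37% to 41.3%, without it from 5.45% to 31.9%.

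The letter before the core also went with YAP. The 7-base form AGGAATG, which contains the 6-base core, was found at 762 retained distal peaks (21.0%, against 18.5% of all WT TEAD peaks), of which 28.3% overlapped YAP (25.3% to 31.6%). Of the 1147 peaks with other forms of the core alone, 15.6% did (13.6% to 17.8%). The difference was 12.7 points (8.94 to 16.6) and, within the 5 bins of WT enrichment, 13.4 points (9.93 to 17.0), although the median WT enrichment of these classes was 5.45 and 5.58. Neither value was computed within bins of 7 d enrichment or numbers of core copies. A peak with more copies has more cores that A can precede. Per site, A preceded the core at 35.6% and T at 47.5%, with 28.8% and 21.9% of such sites in peaks with YAP, and 15.0% where G preceded it. This split by the preceding base was chosen after the values were seen. A pair of cores spaced by 3 bp on 1 strand (GGAATGNNNGGAATG) were rare, at 15 retained distal peaks (0.413%), of which 10 overlapped YAP, and at 0.352% of all WT TEAD peaks.

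Motifs of other factors were searched in the same windows. They were AP-1 (TGANTCA), FOXA (TGTTTAC), HNF4A (CAAAGTCCA), the AGGTCA site of nuclear receptors, C/EBP (TTGCNNAA), HNF1 (GTTAAT), ONECUT (ATCAAT), the NF1 site (TTGGCA), NFY (CCAAT) and ETS (CCGGAAG), each on both strands. A site of one can overlap a site of another by shared end letters. C/EBP was found at 16.3% of the retained distal peaks against 8.39% of their flanks (difference 7.95 points, 6.61 to 9.33) and 14.0% of all WT TEAD peaks. The NF1 site was found at 22.5% against 9.52% of flanks (13.0 points, 11.5 to 14.5) and 19.1% of all WT TEAD peaks, and HNF4A at 1.87% against 0.316% (1.55 points, 1.13 to 2.06) and 1.46%. FOXA was found at 6.77% against 3.20% (3.56 points, 2.68 to 4.50) and 5.45%, and AP-1 at 8.17% against 5.62% (2.54 points, 1.53 to 3.61) and 7.04%. The nuclear receptor site was found at 21.8% against 13.3% (8.44 points, 6.91 to 10.01) and 18.6%, and ONECUT at 10.9% against 7.32% (3.55 points, 2.40 to 4.75) and 8.97%. For HNF1, NFY and ETS the differences from flanks were 1.79 (0.74 to 2.88), 2.17 (0.46 to 3.91) and 0.61 points (0.18 to 1.09), and these motifs were found at 7.09%, 27.4% and 3.75% of all WT TEAD peaks. Intervals were not adjusted for the number of motifs.

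Against the retained promoter peaks, the distal ones held less ETS motif, at 1.49% and 8.87% (−7.39 points, −8.85 to −6.07), and more of the nuclear receptor site, at 21.8% and 12.6% (9.13 points, 7.03 to 11.1). Their GC content also differed, with a median of 47.8% and 54.7%. Against induced distal peaks, around 7 d summits, AP-1 was found at 8.38% and 8.83%, a difference of −0.44 points (−1.42 to 0.60), and FOXA and C/EBP differed by 0.26 (−0.63 to 1.22) and 0.50 points (−0.86 to 1.91). The nuclear receptor site and ONECUT were less frequent at the retained peaks, by −2.12 points (−3.62 to −0.57) and −1.44 points (−2.54 to −0.28). Retained distal peaks with YAP held C/EBP in 21.3% and those without in 15.4% (5.88 points, 2.47 to 9.61). Computed the other way, YAP overlap was 4.79 points higher with the C/EBP motif within the 5 bins of WT enrichment (1.50 to 8.08). Bins of 7 d enrichment were not used for it. AP-1 was held by 9.69% and 7.88% of peaks with and without YAP, and that difference of 1.81 points had an interval that includes 0 (−0.57 to 4.64).

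Retained distal peaks were set against induced ones within bins of TEAD enrichment at 7 d. Without bins, 16.0% of the 3602 distal 7 d peaks matched to a retained distal peak overlapped YAP, against 3.00% of 15522 induced distal peaks and 3.58% of all 7 d TEAD peaks. The difference from induced distal peaks was 13.0 points (11.8 to 14.3). Their median TEAD fold enrichment at 7 d was 17.5 and 7.99. The 7 d TEAD list was divided by fold enrichment into 10 bins. The highest ran from 19.1 to 74.7 and held 1615 of the 3602 retained peaks, so enrichment could still differ within it. Within the 10 bins, the difference in YAP share was 1.65 points (0.05 to 3.25). Without peaks that overlap a YAP peak of WT livers it was 1.30 points, with an interval that includes 0 (−0.29 to 2.90). In the highest bin, 32.4% of 1615 retained and 30.0% of 1235 induced peaks overlapped YAP. The TEAD motif still differed within bins, by 6.64 points (4.53 to 8.75). In the second-lowest bin it was found at 43.8% of only 48 retained peaks (30.7% to 57.7%) and 20.8% of 1288 induced peaks. In the eighth bin the shares were 46.6% of 438 retained and 37.0% of 1886 induced peaks. In the ninth they were 50.2% of 805 and 47.6% of 1808. In the highest bin the shares were 62.8% (60.4% to 65.1%) and 58.9% (56.2% to 61.7%). No interval of the difference was computed for single bins.

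**Figure D5:**
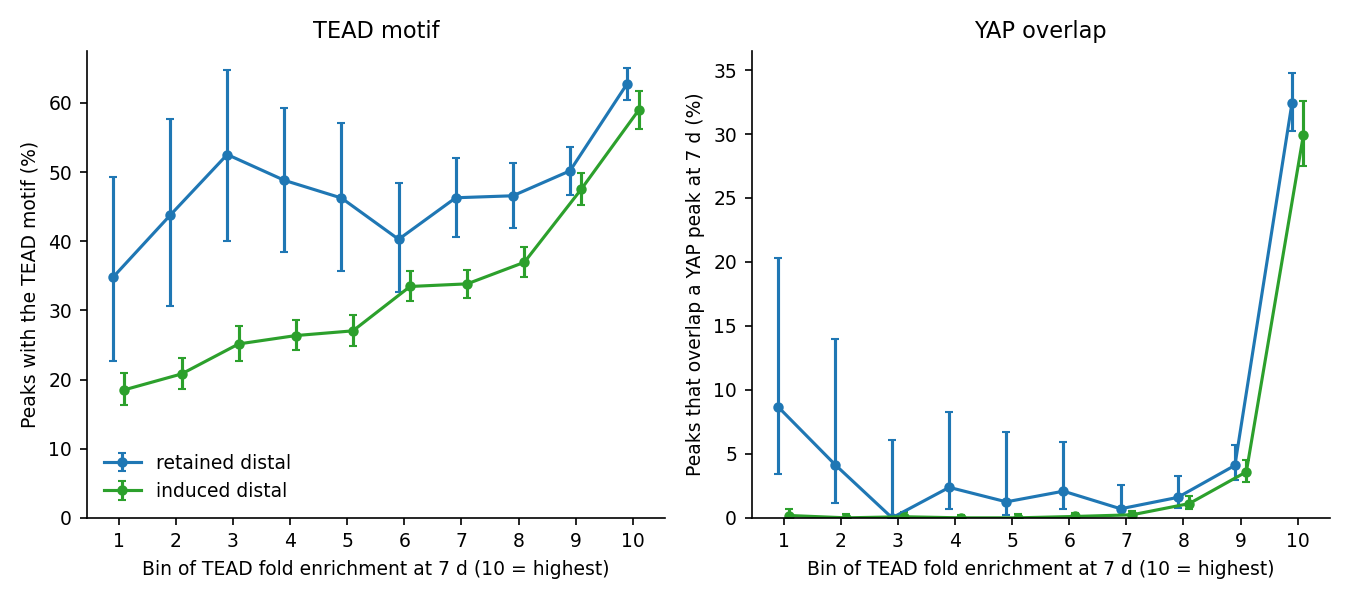
Share of distal 7 d TEAD peaks with the TEAD motif within 100 bp of the summit (left, percent) and share that overlaps a YAP peak at 7 d (right, percent) by bin of TEAD fold enrichment at 7 d (10 bins), for peaks matched to a retained distal peak (blue) and induced distal peaks (green). Bars are 95% Wilson intervals over peaks. In the highest bin the YAP shares were 32.4% and 30.0%, and the motif shares were 62.8% and 58.9%. In the second-lowest bin, with only 48 retained peaks, the motif shares were 43.8% and 20.8%.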

How the data were processed

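Per the labels and the study's methods, the authors aligned reads to mm9 with BWA 0.6.2, merged the replicates of each group and called peaks with MACS2 2.0.9. Per the file headers, the p-value cutoff was 1e-05, tags were 51 bp long and 1 control of 167176362 tags served all 6 lists, and merged libraries held 34260362 to 55032002 tags. Each deposited list gives a peak's pileup at the summit, a signal that counts fragments, its fold enrichment, a ratio to the local background, and a −log10 p-value and −log10 q-value from the authors' caller (the latter not used further).

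Here, lists were intersected in Python 3.11.15 with pandas 2.3.3. A peak with several counterparts was matched to that with the highest −log10 p-value. Starts were those of all transcripts of protein-coding genes in GENCODE for NCBIM37, and sequence was read from that assembly. Because each list merges all replicates, no p-value was computed between conditions. Shares carry 95% Wilson intervals and differences Newcombe intervals, which cover counting error over peaks only. Differences within bins of enrichment were weighted by the number of retained distal peaks, or of peaks with the motif, and carry a normal interval. The overlap and motif searches and intervals were tested on simulated data. The peaks, gene lists and comparisons were chosen with earlier results of these data known. The peaks named were the first 5 by −log10 p-value in the WT TEAD list and the first 5 by that of their YAP peak at 7 d, the 3 highest and 3 lowest ratios of 7 d to 3 d, up to 4 genes per list, the peaks at the edges of the rule and those at Alb, Ctgf, Cyr61, Tead1 and Tead4. A gene that this rule names is not reported here.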

Additional observations from a re-analysis of the deposited data

How the results depend on the processing

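No paired analysis was possible because each list merges the replicates of its group, and for the same reason no replicate could be left out. Alternatives changed the overlap, the peaks kept, the promoter window, the motif and its window, or the matching. In all 47 alternative values of a difference other than the last one below, the direction and the exclusion of 0 by the interval, or its inclusion for AP-1, were as reported. A minimum of 5-fold enrichment in every list left 1932 retained distal peaks and 1147 genes with one. The YAP share was 19.7% under that minimum and 14.0% with a −log10 p-value of at least 10. The TEAD motif share was 58.4% with summits at most 100 bp apart, 55.3% with the −log10 p-value minimum, 62.3% with 5-fold enrichment, 41.5% and 63.0% within 50 bp and 250 bp of the summit, and 21.0% for the 7-base form. The difference in YAP share from induced distal peaks was 1.65 points within 10 bins of 7 d enrichment and 1.30 points when peaks at a YAP peak of WT livers were also left out, an alternative chosen after seeing the data, where the interval includes 0. The unequal fragment lengths and depths of the WT and induced TEAD lists limit every comparison of level between them.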
